A study of Mus musculus with 6 samples.

Results

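The genes of synaptic vesicle fusion were followed in motor cortex RNA of SOD1G93A mice, which carry a mutant human SOD1 transgene and are used to model the motor neuron disease amyotrophic lateral sclerosis. The study set 3 libraries of mice given low-intensity pulsed ultrasound (LIPUS) against 3 libraries of control mice, all transgenic and all labelled day 120. Neither the dose of the ultrasound, nor a sham procedure in the controls, nor sex is given in the sources used here, and the control mice carry the transgene too, so the comparison holds no healthy cortex. The members were all rows of the gene table whose symbol belongs to the syntaxin (Stx), syntaxin-binding (Stxbp), vesicle-associated membrane protein (Vamp), complexin (Cplx), synaptotagmin (Syt), synapsin (Syn), Sv2 or Rab3 families, or is Snap25, Snap47, Snap91, Nsf or Syp. Of 65 such rows, 63 had at least 10 counts summed over the 6 libraries and are the members here, out of 33182 genes in the table. Cplx4 and Syt8, the other two, fell below that minimum.

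Fusion of a synaptic vesicle is driven by SNARE proteins: a Vamp protein in the vesicle membrane zips together with a syntaxin and Snap25 in the plasma membrane. Munc18 proteins of the Stxbp family hold and template syntaxin, complexins clamp the partly zipped complex, and synaptotagmins sense calcium and release that clamp. Synapsins, Sv2 proteins, synaptophysin (Syp) and Rab3 GTPases act on the vesicle before fusion, and the ATPase Nsf takes spent SNARE complexes apart. Other members of these families serve membrane traffic between the Golgi apparatus, endosomes, lysosomes and autophagosomes in every cell.

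Total counts lay between 42726633 and 45885619 in the ultrasound libraries and between 38202541 and 60088636 in the controls, and the members took 1.54% to 1.85% and 1.56% to 1.80% of them. The markers of cortical excitatory neurons (Slc17a7, Neurod6, Camk2a and Tbr1) were present in every library. Control 3 stood apart, because its summed olfactory bulb markers reached 58.6 FPKM, where the ultrasound libraries had 1.37 to 2.93 FPKM and the other controls 1.82 and 3.13 FPKM. Reads of 18S ribosomal RNA took 0.655% to 9.18% of counts in the ultrasound libraries, highest in ultrasound 2, and 0.561% to 4.68% in the controls, highest in control 3. Striatal markers also varied between libraries, and values of members that moved with either list are given beside the lists below. In bulk tissue, fewer cells of a type and less RNA per cell cannot be told apart.

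No member of these families passed the test after ultrasound. Of the 63 members, 58 had a mean of at least 0.5 FPKM (fragments scaled to transcript length and sequencing depth) and were tested, and 0 of them had an adjusted p under 0.05 in edgeR's quasi-likelihood test, where 0.00635% of all 15740 tested genes did. DESeq2 passed 0 members as well, with Rab3c lowest at an adjusted p of 0.111, against 0.184% of all tested genes. An unadjusted p under 0.05 was found for 4 members (background 4.77%), with Rab3c and Cplx2 higher after ultrasound (background 2.45%) and Stx3 and Stx2 lower (background 2.32%). As 4 of 58 members are 6.90%, the share was near the background. Without control 3 the count was 5 higher and 0 lower, without control 2 it was 1 and 0, and without ultrasound 2 it was 1 and 1. For these fits the share over all tested genes was not computed.

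The members were split evenly in sign, with 29 log2 fold changes above 0 and 29 below, against 48.8% and 51.2% of all tested genes. Every log2 fold change given is ultrasound minus control. Their median was 0.0060 over the tested members and -0.0075 over all tested genes, and the members' median was -0.0170 without control 3 and 0.0659 without control 2. The 95% interval of the log2 fold change lay within a 2-fold change for 50 of the 58 members and within a 1.5-fold change for 24. The standard error (SE) ranged from 0.11 to 1.06, and Syt6 had the largest.

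**Figure D1:**
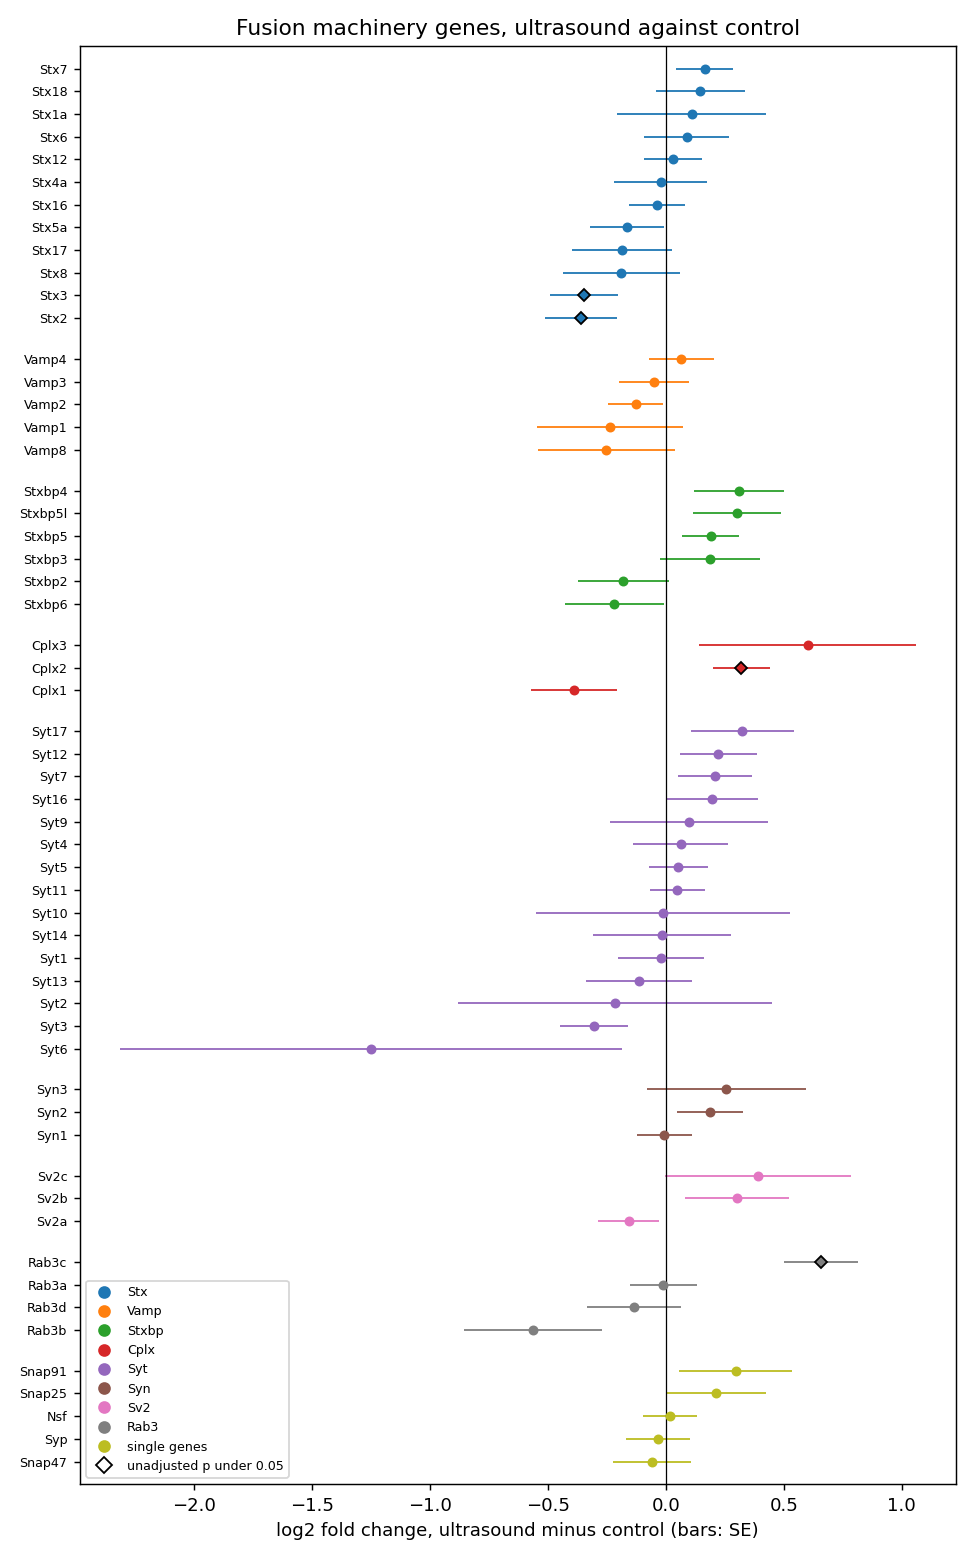
Log2 fold changes (ultrasound minus control) of the tested members described here, with their SE, grouped by family; diamonds mark an unadjusted p under 0.05. Most members lie within 0.4 of 0, Rab3c lies at 0.66, and Syt6 and Syt2 have the longest bars.

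Scaled to the effective library size (CPM with TMM factors), the 3 ultrasound libraries lay all above or all below the 3 controls for 7 members, or 12.1%, where 11.3% of all tested genes did so. The 4 that were higher (background 5.69%) included Cplx2, Rab3c and Stxbp5, and the 3 that were lower (background 5.66%) were Stx2, Stx3 and Syt3. In FPKM the groups of Stxbp5 overlapped. With 1 library left out separation comes more easily, and the number higher was 10 without control 1, 9 without control 3 and 13 without ultrasound 3, while the number lower was 7 without control 1 or ultrasound 2 and 5 without control 2 or ultrasound 1. The share over all tested genes was not computed with a library left out, so these counts have no background beside them.

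By level per transcript length, averaged over all 6 libraries, Cplx1 came first, followed by Vamp2, Syp, Cplx2 and Snap25. In the ultrasound libraries alone Cplx2 came first and Cplx1 after Vamp2, with Cplx2 at 269.5 ± 6.82 FPKM in ultrasound libraries and 222 ± 12.1 FPKM in controls (SD, n = 3 each). Cplx1 averaged 249.6 ± 61.2 FPKM in ultrasound libraries and 334 ± 56.8 FPKM in controls (SD, n = 3 each). Vamp2 averaged 256 ± 18.1 FPKM in ultrasound libraries and 287 ± 24.6 FPKM in controls (SD, n = 3 each). In the ultrasound libraries the ranges of Cplx2, Vamp2 and Cplx1 overlapped, so their order there is within the spread. In the controls Cplx2 lay below both others, at most 234 FPKM against at least 259 for Vamp2 and 278 for Cplx1. In all, 12 members had a mean of at least 100 FPKM, 33 of at least 10 FPKM and 57 of at least 1 FPKM. The 5 members below 0.5 FPKM were Vamp5, Syt15, Vamp9, Stx11 and Stx19. Stx19 had 0 counts in each ultrasound library and 4, 17 and 0 counts in controls 1 to 3, and Vamp5 had 17, 100 and 23 counts in the ultrasound libraries, against 65, 154 and 87 in the controls.

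Neither Snap25 nor Stx1a, plasma membrane SNAREs of neurons, passed the test. Snap25, which gives the SNARE complex a pair of its helices, stood at 278, 218 and 187 FPKM in the ultrasound libraries, against 224, 232 and 148 FPKM in the controls. Ultrasound 1 was the highest and control 3 the lowest of the 6 libraries, and the groups overlapped, the log2 fold change being 0.21 (SE 0.21) with a 95% interval of -0.27 to 0.70. It was 0.041 without control 3, 0.079 without ultrasound 1 and 0.35 without ultrasound 3. Stx1a, a syntaxin of the presynaptic membrane, had 119, 129.9 and 78.2 FPKM in the ultrasound libraries, against 100.2, 147 and 66.5 FPKM in the controls. Control 2 and ultrasound 2 were the highest and control 3 and ultrasound 3 the lowest, so the groups overlapped widely. The log2 fold change of Stx1a was 0.11 (SE 0.31), and it changed sign to -0.12 without control 3 and to -0.089 without ultrasound 2.

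Stx2 and Stx3, plasma membrane syntaxins also found outside neurons, were lower in every ultrasound library without passing the adjusted threshold. Stx3 had 5.39, 5.07 and 5.99 FPKM in the ultrasound libraries, against 8.04, 6.71 and 6.70 FPKM in the controls. The highest ultrasound library lay below the lowest control, giving a log2 fold change of -0.35 (SE 0.14), an unadjusted p of 0.0431 and an adjusted p of 0.973 in edgeR. For Stx2 the values were 3.12, 3.32 and 3.33 FPKM in the ultrasound libraries, against 4.31, 4.33 and 4.29 FPKM in the controls. The controls lay within a narrow band of 4.29 to 4.33 FPKM, giving a log2 fold change of -0.36 (SE 0.15), unadjusted p 0.0474. With each library left out, Stx2 lay between -0.42 and -0.30 and Stx3 between -0.40 and -0.24. As the groups of both genes were separate, their sign could not turn in these fits.

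Syntaxins of inner membranes had log2 fold changes between -0.19 for Stx8, an endosomal syntaxin, and 0.16 for Stx7, another one. Stx7, which acts in fusion of late endosomes, had 26.2, 24.9 and 23.6 FPKM in the ultrasound libraries, against 24.1, 23.6 and 20.8 FPKM in the controls. The groups overlapped and the log2 fold change was 0.16 (SE 0.12). Stx12 of recycling endosomes, Stx6 and Stx16 of the trans-Golgi network, Stx18 of the endoplasmic reticulum, Stx5a of the Golgi apparatus, Stx17 of autophagosomes and Stx4a of the plasma membrane lay between -0.19 and 0.15. Over the 13 tested syntaxins, 6 values were above 0 and 7 below, and the median was -0.022.

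On the vesicle side, Vamp2, the main synaptobrevin of forebrain synapses, stood at 272, 236 and 259.8 FPKM in the ultrasound libraries, against 259, 297 and 304 FPKM in the controls. Controls 2 and 3 were the highest, control 1 lay among the ultrasound libraries, and the log2 fold change of -0.13 (SE 0.12) was -0.072 without control 3. Vamp1, the synaptobrevin of many fast-firing neurons, had 18.9, 9.22 and 11.8 FPKM in the ultrasound libraries, against 15.0, 22.0 and 11.0 FPKM in the controls. Control 2 and ultrasound 1 were highest and ultrasound 2 lowest, and the log2 fold change of -0.24 (SE 0.31) became 0.052 without control 2, -0.059 without ultrasound 2, -0.15 without ultrasound 3, -0.44 without control 3 and -0.54 without ultrasound 1. Vamp3, the widely expressed cellubrevin, Vamp4 of the trans-Golgi network and Vamp8 of late endosomes had log2 fold changes of -0.050 (SE 0.15), 0.066 (SE 0.14) and -0.25 (SE 0.29). Of the 5 tested Vamp genes, 4 had values below 0 and 1 above.

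Among the syntaxin binders, Stxbp5 and Stxbp5l, the tomosyns, which bind SNAREs in place of Vamp proteins, had log2 fold changes of 0.19 (SE 0.12) and 0.30 (SE 0.19). Stxbp5 stood at 7.95, 6.73 and 7.47 FPKM in the ultrasound libraries, against 6.94, 7.13 and 5.83 FPKM in the controls. Stxbp5l had 3.92, 2.76 and 2.62 FPKM in the ultrasound libraries, against 2.81, 2.61 and 2.29 FPKM in the controls. For both tomosyns control 3 was the lowest library, and with ultrasound libraries among the controls in FPKM the groups overlapped. Stxbp5 was at 0.11 without control 3, and Stxbp5l at 0.13 without ultrasound 1. Stxbp4, known as a syntaxin 4 binder, had 1.45, 1.46 and 1.76 FPKM in the ultrasound libraries, against 1.48, 1.34 and 1.04 FPKM in the controls, a log2 fold change of 0.31 (SE 0.19). Control 3 was again the lowest library and control 1 lay among the ultrasound values, and the value was 0.18 without control 3. Stxbp2 and Stxbp3, the Munc18 forms of other tissues, and Stxbp6 (amisyn) had values of -0.18 (SE 0.19), 0.19 (SE 0.21) and -0.22 (SE 0.21).

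Cplx1 and Cplx2 had log2 fold changes of opposite sign, neither past the adjusted threshold. Cplx2 (ENSMUSG00000025867, chromosome 13), a complexin found mainly in excitatory neurons of the forebrain, had 262, 275 and 272 FPKM in the ultrasound libraries, against 234, 209 and 222 FPKM in the controls. Every ultrasound library lay above every control, and the log2 fold change was 0.32 (SE 0.12), a 95% interval of 0.042 to 0.60, with an unadjusted p of 0.0293 and an adjusted p of 0.973 in edgeR. It lay between 0.26 and 0.37 with each library left out, where separate groups fix the sign beforehand. Cplx1, found in many inhibitory neurons, had 318, 199.9 and 231 FPKM in the ultrasound libraries, against 278, 392 and 333 FPKM in the controls. Ultrasound 2 and 3 lay below every control while ultrasound 1 lay above control 1, and the log2 fold change was -0.39 (SE 0.18), unadjusted p 0.0652. Cplx3, known from retinal synapses and from neurons at the base of the cortex, overlapped between the groups, its log2 fold change being 0.60 (SE 0.46).

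As a share of Cplx1 and Cplx2 together, Cplx1 made up 54.8, 42.1 and 45.9% in the ultrasound libraries, against 54.3, 65.2 and 59.9% in the controls. Ultrasound 1 and control 1 were alike and the other libraries further apart. The share averaged 47.6% ± 6.53 in ultrasound libraries and 59.8% ± 5.41 in controls (SD, n = 3 each), a difference of -12.2 percentage points with an exact two-sided permutation p of 0.2 (0.72 adjusted over 12 shares), where 0.1 is the smallest p that 3 libraries against 3 can give. The summed excitatory neuron markers stood at 604, 617 and 595 FPKM in the ultrasound libraries, against 594, 539 and 474 FPKM in the controls. They lay higher in each ultrasound library than in each control, but only narrowly, with 595 FPKM in ultrasound 3 against 594 FPKM in control 1. Each of the 4 markers alone overlapped between the groups in FPKM. In edgeR 0 of the 4 passed, and all 4 had log2 fold changes above 0. Pan-neuronal markers were Rbfox3, Tubb3, Map2 and Eno2. Their sum stood at 342, 304 and 310 FPKM in the ultrasound libraries, against 314, 359 and 375 FPKM in the controls. These groups overlapped, and 1 of the 4 had a log2 fold change above 0. Controls 2 and 3 were the highest libraries and ultrasound 2 the lowest for this sum, the interneuron sum given below and Cplx1. The part of any of these cell types in the Cplx2 and Cplx1 values was not tested.

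**Figure D2:**
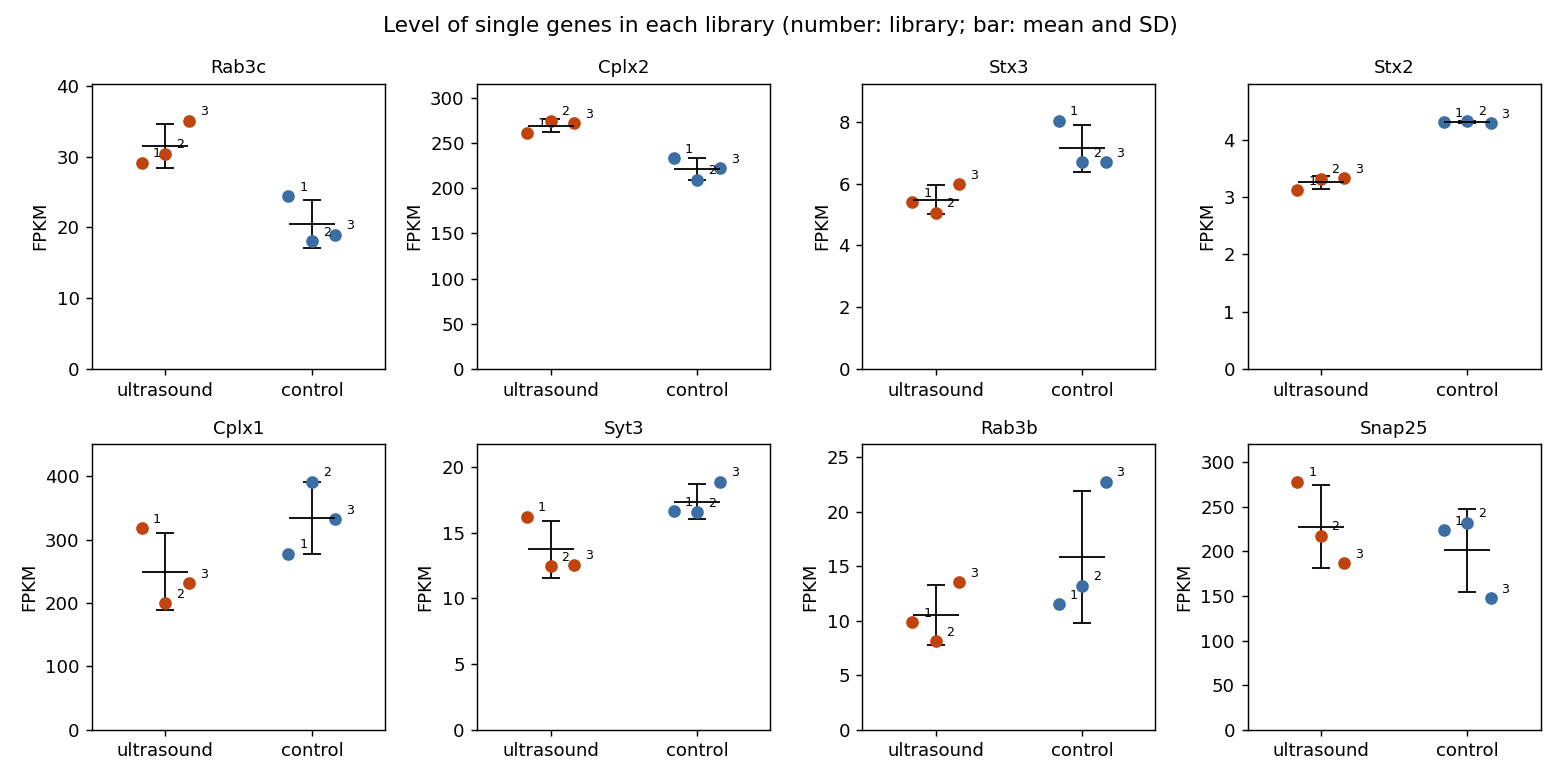
FPKM of 8 members in each library, with the mean and SD of each group of 3. The ultrasound points lie all above the controls for Rab3c and Cplx2 and all below them for Stx3, Stx2 and Syt3, while the groups of Cplx1, Rab3b and Snap25 overlap.

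Upstream sequence is shown for the member with the smallest p, for both complexins and for Syn1, the 1 member whose window held the RE1 part. For 51 of the 63 members RefSeq promoter windows on GRCm38.p6 were matched by symbol, and the 250 bases before the transcription start were read. Motif matches on either strand stand in capitals: the GC box GGGCGG, the cAMP response element TGACGTCA, the TATA box TATAAA, and TTCAGCACC, the left part of the RE1 element that the repressor REST binds. The matches shown do not overlap each other, and a GC box on the opposite strand reads CCGCCC.
Rab3c: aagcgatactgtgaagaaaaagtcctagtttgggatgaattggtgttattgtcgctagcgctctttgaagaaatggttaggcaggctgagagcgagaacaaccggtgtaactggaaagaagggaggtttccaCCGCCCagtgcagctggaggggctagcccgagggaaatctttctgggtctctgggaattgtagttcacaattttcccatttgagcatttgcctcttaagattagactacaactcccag
Cplx2: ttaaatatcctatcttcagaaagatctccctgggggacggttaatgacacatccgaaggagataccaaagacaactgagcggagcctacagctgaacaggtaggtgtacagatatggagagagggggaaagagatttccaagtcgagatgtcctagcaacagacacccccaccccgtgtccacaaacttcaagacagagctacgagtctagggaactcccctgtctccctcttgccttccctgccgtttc
Cplx1: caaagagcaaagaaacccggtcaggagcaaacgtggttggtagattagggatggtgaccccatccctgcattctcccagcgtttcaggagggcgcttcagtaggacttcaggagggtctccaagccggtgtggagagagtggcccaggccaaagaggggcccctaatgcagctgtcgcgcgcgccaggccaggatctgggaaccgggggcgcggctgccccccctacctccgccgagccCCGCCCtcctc
Syn1: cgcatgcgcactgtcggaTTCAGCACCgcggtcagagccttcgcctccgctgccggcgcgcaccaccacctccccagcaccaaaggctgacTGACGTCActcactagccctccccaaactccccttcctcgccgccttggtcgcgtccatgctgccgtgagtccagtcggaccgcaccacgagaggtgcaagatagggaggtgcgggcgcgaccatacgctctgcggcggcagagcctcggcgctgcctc
The Rab3c window lies at chr13:110280207-110280456, minus strand, and the Cplx2 window at chr13:54302306-54302555, plus strand. For Cplx1 it lies at chr5:108550028-108550277, minus strand, and for Syn1 at chrX:20920919-20921168, minus strand. The Rab3c and Cplx1 windows each held 1 GC box, Cplx2 held none of the 4 motifs, and Syn1 held 1 RE1 part and 1 cAMP response element. Base composition differed, with 50.8% G and C for Cplx2, 64.8% for Cplx1, 47.6% for Rab3c and 68.0% for Syn1.

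The GC box occurred in 40 of the 65 windows of members (61.5%), against 32.7% of all 32851 windows of this length. All windows were taken with no filter on level, while members needed at least 10 counts. A share over windows of tested genes was not computed. The TATA box was found in 7.69% of the member windows and 12.4% of all windows, the members being Rab3b, Stx2, Stx3 and Sv2b. The cAMP response element occurred in Syn1 and Stxbp3 (all windows 1.55%), and the RE1 part in Syn1 (all windows 0.301%). A match describes the letters of these windows.

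Of the calcium sensors, Syt1, the sensor of fast synchronous release in forebrain neurons, had 185, 129.8 and 123 FPKM in the ultrasound libraries, against 151, 177 and 127 FPKM in the controls. Ultrasound 1 and control 2 were the highest libraries and the groups overlapped, with a log2 fold change of -0.019 (SE 0.18) that lay between -0.19 and 0.10 with single libraries left out, above 0 without control 2, ultrasound 2 or ultrasound 3. Syt7, a slower sensor that serves asynchronous release and facilitation, had 16.8, 15.2 and 16.9 FPKM in the ultrasound libraries, against 17.3, 14.5 and 11.7 FPKM in the controls. Control 3 was the lowest library and control 1 the highest, and the log2 fold change of 0.21 (SE 0.16) was 0.080 without control 3 and 0.37 without control 1. Syt2, which replaces Syt1 at fast synapses of the hindbrain and of parvalbumin interneurons, had 11.6, 1.40 and 6.35 FPKM in the ultrasound libraries, against 6.43, 9.89 and 6.23 FPKM in the controls. Ultrasound 2 lay far below the other 5 libraries and ultrasound 1 above them, so the log2 fold change of -0.21 (SE 0.67) turned to 0.25 without ultrasound 2 and to 0.026 without control 2. Pvalb, the parvalbumin gene among the interneuron markers, stood at 55.6, 31.6 and 17.0 FPKM in the ultrasound libraries, against 35.3, 80.5 and 16.2 FPKM in the controls. Control 2, ultrasound 1 and control 1 were the 3 highest libraries for both Pvalb and Syt2, while the lowest was control 3 for Pvalb and ultrasound 2 for Syt2. The part of parvalbumin interneurons in the Syt2 value was not tested.

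Syt3, a calcium-binding synaptotagmin of synaptic membranes, was lower in each ultrasound library. It had 16.2, 12.4 and 12.6 FPKM in the ultrasound libraries, against 16.6, 16.5 and 18.9 FPKM in the controls, and the log2 fold change was -0.30 (SE 0.14), unadjusted p 0.0680. Syt6 showed the largest spread of any member. It had 2.16, 2.46 and 2.62 FPKM in the ultrasound libraries, against 0.835, 1.68 and 15.1 FPKM in the controls, so control 3 alone stood high while controls 1 and 2 lay below every ultrasound library. The log2 fold change of -1.25 (SE 1.06) became 0.99 without control 3. That library also held the olfactory bulb markers, at 17.6 FPKM for Doc2g, 24.1 for Cdhr1, 10.6 for Omp and 6.18 for Eomes, each at most 2.14 FPKM in the other 5 libraries, with Eomes listed at 0 in ultrasound 2 and control 1. The part of the bulb markers in the Syt6 value was not tested.

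Syt17, a synaptotagmin relative also known as B/K, had 7.91, 7.26 and 9.86 FPKM in the ultrasound libraries, against 5.98, 5.51 and 8.96 FPKM in the controls. Ultrasound 3 and control 3 were the highest libraries and controls 1 and 2 the lowest, and the log2 fold change of 0.32 (SE 0.22) was 0.58 once control 3 was left out, 0.19 for control 2 and 0.20 for ultrasound 3. The other tested synaptotagmins ran from -0.11 for Syt13 to 0.22 for Syt12. Among these, Syt11 and Syt4, which lack calcium-dependent membrane binding, had values of 0.050 (SE 0.12) and 0.063 (SE 0.20), and Syt5 had 0.054 (SE 0.13). Syt10, a sensor for growth factor secretion in olfactory bulb neurons, had -0.013 (SE 0.54), and Syt9, Syt14 and Syt16 had 0.10 (SE 0.33), -0.016 (SE 0.29) and 0.20 (SE 0.19). Over the 15 tested synaptotagmins, 8 values lay above 0 and 7 below, with a median of 0.050.

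**Figure D3:**
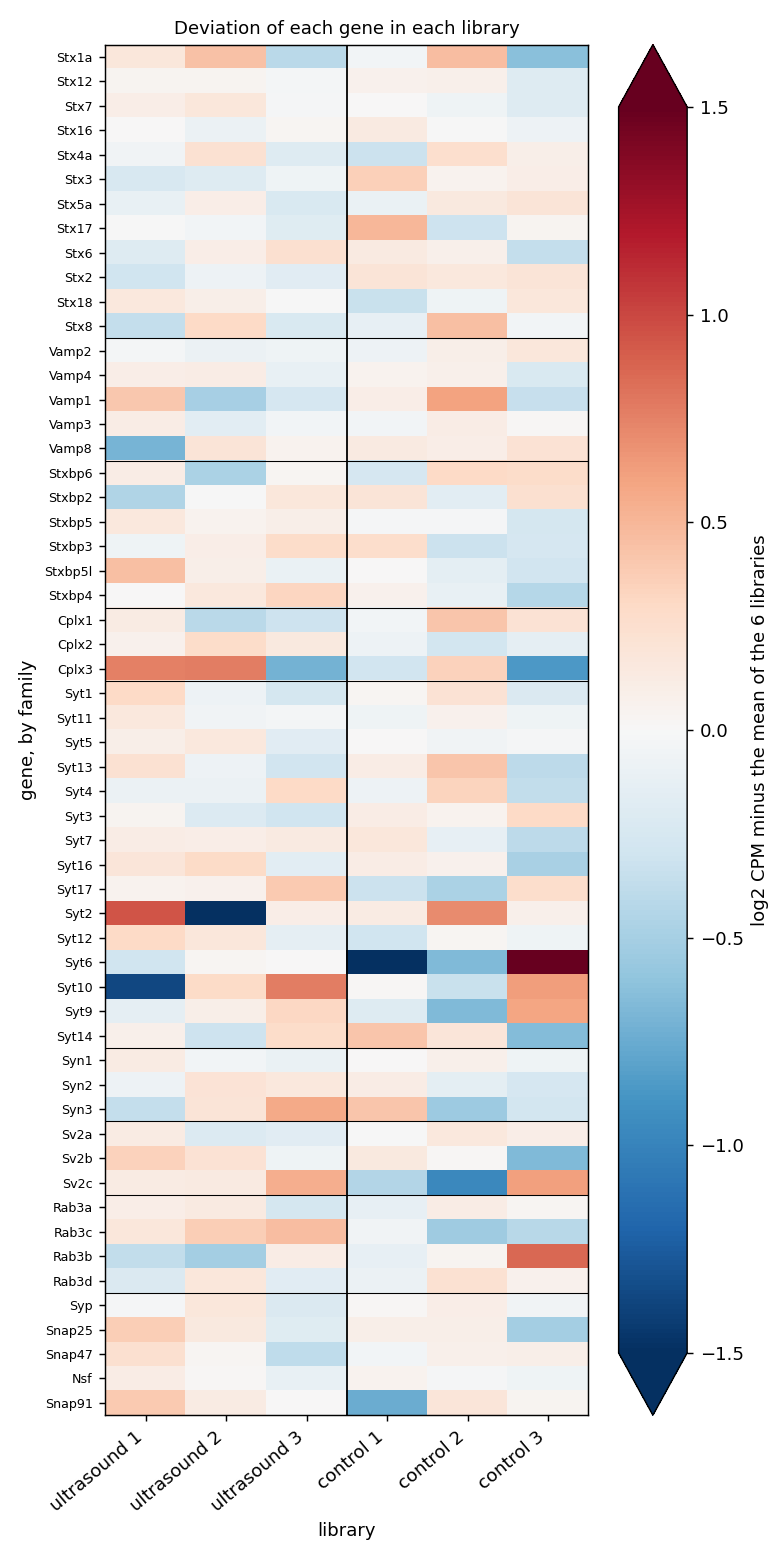
Log2 CPM of each tested member described here in each library, minus the member's mean over the 6 libraries, with ultrasound libraries left of the line and families separated by rules. Single squares stand out, such as Syt6 in control 3 and Syt2 in ultrasound 2, and no family is uniformly red on 1 side of the line and blue on the other.

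The synapsins, which hold the reserve pool, and Syp showed small differences. Syn1, a phosphoprotein that tethers vesicles to each other and to actin, had 158, 129 and 133 FPKM in the ultrasound libraries, against 142, 154 and 135 FPKM in the controls. Its log2 fold change of -0.006 (SE 0.12) and interval of -0.27 to 0.26 lay close to 0 with overlapping groups, and ran between -0.072 and 0.040 with single libraries left out, above 0 without control 2, ultrasound 2 or ultrasound 3. Syn2, its paralog, had 61.1, 67.5 and 71.0 FPKM in the ultrasound libraries, against 68.3, 58.9 and 53.0 FPKM in the controls, a log2 fold change of 0.19 (SE 0.14). Control 1 lay among the ultrasound values, so these groups overlapped too, and the value was 0.11 without control 3 and 0.30 without control 1. Syn3, the least abundant synapsin here, had a log2 fold change of 0.26 (SE 0.34). Syp, an abundant vesicle membrane protein used as a synaptic marker, had 255, 264 and 217 FPKM in the ultrasound libraries, against 256, 278 and 242 FPKM in the controls. The groups overlapped, and the log2 fold change of -0.034 (SE 0.14) became 0.012 without control 2 and 0.059 without ultrasound 3.

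The Sv2 genes, which code for vesicle glycoproteins with a transporter fold, did not share a sign. Sv2a, the form found at nearly all synapses and the target of levetiracetam, had 105, 75.9 and 84.3 FPKM in the ultrasound libraries, against 93.7, 108 and 100.5 FPKM in the controls. Ultrasound 2 and 3 lay below every control, ultrasound 1 lay among the controls, and the log2 fold change of -0.16 (SE 0.13) was -0.10 without ultrasound 2 and -0.27 without ultrasound 1. Sv2b, a form of many excitatory neurons, had 68.5, 57.2 and 50.5 FPKM in the ultrasound libraries, against 58.4, 55.1 and 33.2 FPKM in the controls. Control 3 was far below the other 5 libraries, and the log2 fold change of 0.30 (SE 0.22) was 0.092 without control 3 and 0.46 without control 1. Sv2c, the form of the basal ganglia, had 6.04, 5.55 and 7.99 FPKM in the ultrasound libraries, against 4.01, 2.86 and 8.34 FPKM in the controls. Control 3 and ultrasound 3 were the highest libraries and controls 2 and 1 the lowest, and the log2 fold change of 0.39 (SE 0.39) was 0.96 without control 3, 0.26 without control 1, 0.10 without control 2 and 0.24 without ultrasound 3.

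Summed over 7 striatal markers, the level stood at 239, 236 and 366 FPKM in the ultrasound libraries, against 179, 103 and 331 FPKM in the controls. From ultrasound 1 down to control 2 the 4 lower libraries came in the same order for Sv2c, Syt17 and this sum, and ultrasound 3 and control 3 were the upper pair for each of them. None of the 7 markers passed in edgeR and none was at 0 in any library. The part of striatal tissue in the Sv2c and Syt17 values was not tested.

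**Figure D4:**
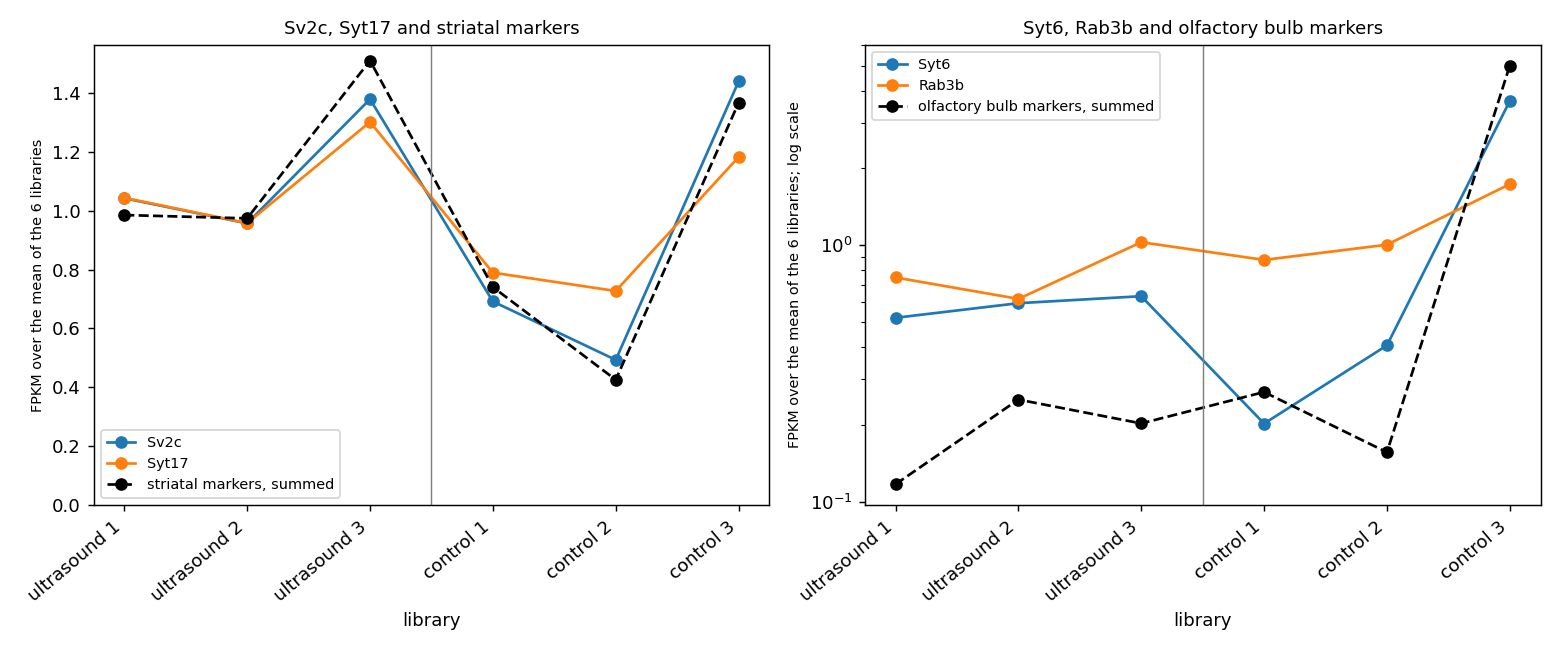
FPKM of Sv2c and Syt17 with the summed striatal markers (left), and of Syt6 and Rab3b with the summed olfactory bulb markers (right, log scale), each divided by its mean over the 6 libraries. Sv2c and Syt17 are highest in ultrasound 3 and control 3, as the striatal sum is, and Syt6, Rab3b and the bulb sum all peak in control 3.

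Within the Sv2 family, Sv2a made up 58.4, 54.8 and 59.1% in the ultrasound libraries, against 60.0, 65.1 and 70.7% in the controls. Every ultrasound library lay below every control, with means of 57.4% ± 2.32 in ultrasound libraries and 65.3% ± 5.37 in controls (SD, n = 3 each) and an exact two-sided permutation p of 0.1, the smallest this design allows (0.72 adjusted over 12 shares). Sv2b made up 38.2, 41.2 and 35.3% in the ultrasound libraries, against 37.4, 33.2 and 23.4% in the controls, with an exact permutation p of 0.2. Control 1 lay between the ultrasound libraries and control 3 lowest of the 6. The difference in the Sv2b share, 6.94 percentage points, was 2.96 without control 3, and that in the Sv2a share went to -5.14 from -7.88. Both are parts of the same sum, of which Sv2c averaged 4.32% in ultrasound libraries and 3.39% in controls. The Sv2a and Sv2b differences are therefore not independent results.

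Rab3 GTPases, which bring vesicles to the release site through their effectors Rim and rabphilin, held the member with the smallest p. Rab3c (ENSMUSG00000021700, chromosome 13) had 29.2, 30.4 and 35.1 FPKM in the ultrasound libraries, against 24.4, 18.1 and 19.0 FPKM in the controls. The lowest ultrasound library lay above the highest control, and the mean was 31.6 ± 3.12 FPKM in ultrasound libraries and 20.5 ± 3.45 FPKM in controls (SD, n = 3 each). Counts were 17276, 18775 and 20238 in the ultrasound libraries, against 18626, 14847 and 9786 in the controls before scaling. The log2 fold change was 0.66 (SE 0.16), with a 95% interval of 0.29 to 1.02, an unadjusted p of 0.00317 and an adjusted p of 0.973 in edgeR's test. Leaving out each library in turn gave 0.57 to 0.82, a sign that the separate groups fix beforehand. The adjusted p spanned 0.111 (DESeq2) to 0.998 (edgeR without ultrasound 1).

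Rab3a, the predominant Rab3 of brain synapses, had 186, 173 and 143 FPKM in the ultrasound libraries, against 156, 189.7 and 174 FPKM in the controls. The groups overlapped, with a log2 fold change of -0.011 (SE 0.14) that became 0.050 without control 2 and 0.10 without ultrasound 3. Rab3b had 9.86, 8.14 and 13.5 FPKM in the ultrasound libraries, against 11.5, 13.2 and 22.8 FPKM in the controls. Control 3 stood well above the other 5 libraries, and the log2 fold change of -0.56 (SE 0.29) was -0.20 without it. Control 3 was also the library with olfactory bulb markers, whose part in the Rab3b value was not tested. Rab3d, the form of secretory glands, had a log2 fold change of -0.14 (SE 0.20). Rab3a held 78.7% ± 4.42 of the summed Rab3 FPKM in ultrasound libraries and 81.5% ± 2.73 in controls (exact permutation p = 0.6).

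Nsf had 85.2, 72.2 and 71.7 FPKM in the ultrasound libraries, against 80.1, 78.3 and 73.6 FPKM in the controls, the log2 fold change being 0.018 (SE 0.11) with an interval of -0.25 to 0.28. The groups overlapped, and the value lay between -0.038 and 0.073 with single libraries left out, below 0 without control 3 or ultrasound 1. Snap91 (AP180), a clathrin assembly protein of vesicle retrieval, and Snap47, a Snap25 relative, had log2 fold changes of 0.30 (SE 0.24) and -0.059 (SE 0.17). For Snap91 control 1 was low at 18.9 FPKM, where the other 5 libraries had 31.6 to 42.1 FPKM.

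Paralog balance in the remaining families showed no difference beyond the spread. Syn1 held 67.4% ± 3.93 in ultrasound libraries and 70.4% ± 2.72 in controls of the synapsin FPKM (SD, n = 3 each, exact permutation p = 0.3). Syt1 held 96.0% ± 2.55 in ultrasound libraries and 95.3% ± 0.605 in controls of Syt1 plus Syt2, and Vamp2 held 95.1% ± 1.45 in ultrasound libraries and 94.7% ± 1.72 in controls of Vamp1 plus Vamp2. The difference in the Syt1 share was -0.711 percentage points without ultrasound 2 and that in the Vamp2 share -0.382 without control 2, against 0.731 and 0.420 with every library. The shares of Syt7 against Syt1, Vamp3 against Vamp2 and Sv2c in the Sv2 family had exact permutation p-values of 0.3, 0.5 and 0.6. Of the 12 shares computed, 0 passed, and the smallest adjusted p was 0.72.

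**Figure D5:**
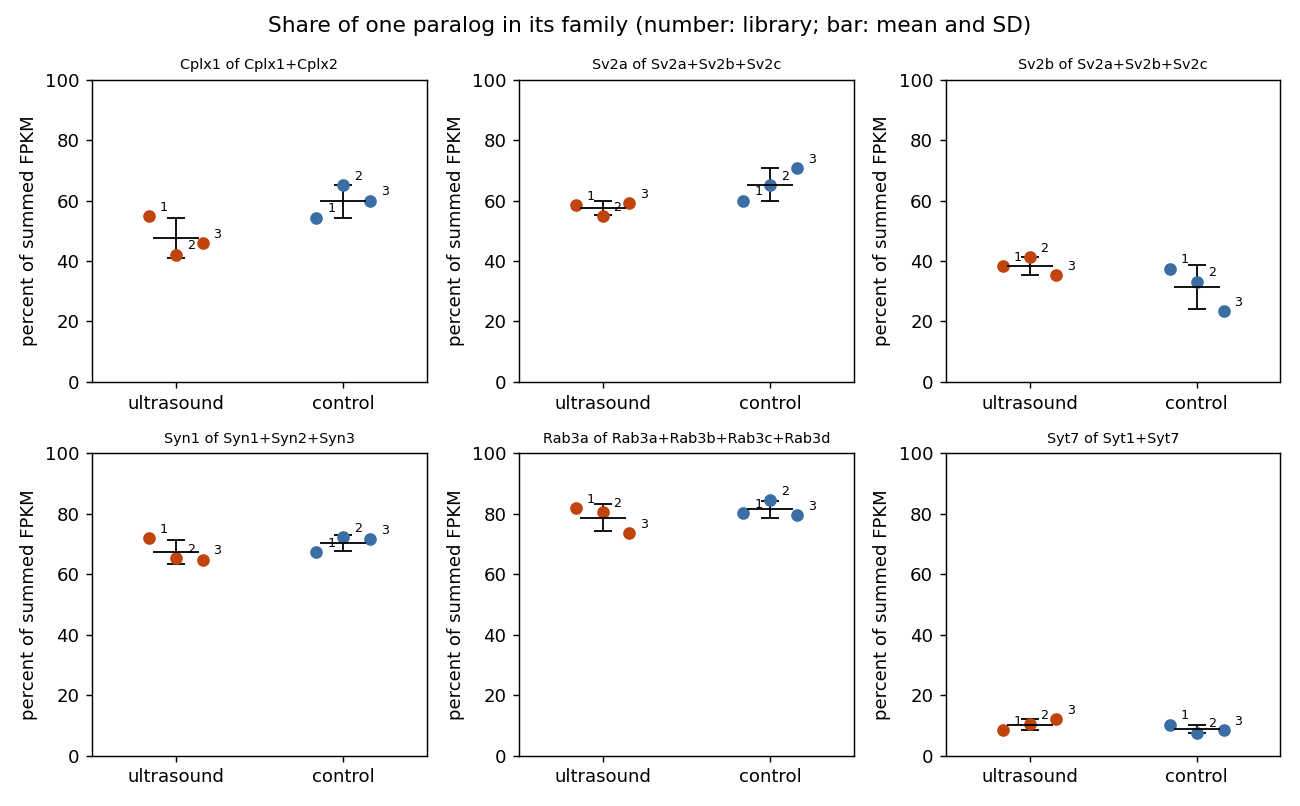
Percentage of a family's summed FPKM held by 1 paralog in each library, with the mean and SD of each group of 3. The Sv2a points of the ultrasound libraries lie below all controls, and the groups overlap for the other 5 shares.

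Genes that work beside these families were read from the same fit. In the list of SNARE priming factors, 11 of 17 tested genes had log2 fold changes above 0, with a median of 0.18, and 0 passed. The median was 0.0149 without control 3, 0.0665 without ultrasound 1, 0.0795 without control 1, 0.0812 without ultrasound 2 and 0.10 without ultrasound 3. Unc13c (Munc13-3), a priming factor best known from the cerebellum, had 5.99, 10.5 and 14.4 FPKM in the ultrasound libraries, against 6.59, 3.58 and 4.69 FPKM in the controls, a log2 fold change of 1.10 (SE 0.37), unadjusted p 0.0206. Its groups overlapped at ultrasound 1 and control 1. Rims1, a Rab3 effector at the active zone, had 34.9, 35.0 and 31.1 FPKM in the ultrasound libraries, against 33.1, 21.3 and 11.4 FPKM in the controls, a log2 fold change of 0.66 (SE 0.35). Control 3 was the lowest library and control 1 lay among the ultrasound libraries.

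Of 13 active zone scaffold genes, 11 had values above 0 with a median of 0.17, and 0 passed, while 3 had an unadjusted p under 0.05 and all 3 of these were higher (background 2.45%). Without control 3 the median was 0.11, without ultrasound 3 it was 0.11, and without ultrasound 2 it was 0.0989. Pclo, the giant scaffold piccolo, had 8.26, 6.99 and 7.23 FPKM in the ultrasound libraries, against 6.28, 6.07 and 4.51 FPKM in the controls, a log2 fold change of 0.45 (SE 0.15). Erc1, an ELKS scaffold, had 1.98, 1.95 and 2.72 FPKM in the ultrasound libraries, against 1.62, 1.68 and 1.66 FPKM in the controls, a log2 fold change of 0.46 (SE 0.16). Bsn, the scaffold bassoon, is named as the last of the 3 after its values were seen, and had 31.5, 31.8 and 32.7 FPKM in the ultrasound libraries, against 28.5, 25.5 and 18.1 FPKM in the controls with a log2 fold change of 0.46 (SE 0.17). On scaled CPM, every ultrasound library lay above every control for 3 of the 13 genes (background 5.69%) and below for 0 (background 5.66%). Those were the same 3 scaffolds, which were named by their small p, so their separation is no added support. Their unadjusted p-values were 0.0165, 0.0236 and 0.0296 with an adjusted p of 0.973 in edgeR.

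Vesicle recycling genes had 12 of 21 values above 0, a median of 0.025 (-0.015 without control 2 and 0.060 without control 1), and 0 genes passed or had an unadjusted p under 0.05. Cltc, the clathrin heavy chain, stood at a log2 fold change of 0.23 (SE 0.13), and Sh3gl1, an endophilin, at -0.22 (SE 0.14). Vesicle membrane and filling genes had 10 of 15 values above 0, a median of 0.058 (0.0945 without control 2, 0.12 without ultrasound 2 and 0.16 without control 3), and likewise 0 genes passed or had an unadjusted p under 0.05. Slc17a7, the vesicular glutamate transporter VGLUT1, had 242, 247 and 196 FPKM in the ultrasound libraries, against 161, 183 and 206 FPKM in the controls, a log2 fold change of 0.36 (SE 0.16). Control 3 lay above ultrasound 3, so the groups overlapped. Slc17a7 is also 1 of the 4 excitatory neuron markers. Scamp1, a secretory carrier membrane protein, had a log2 fold change of 0.17 (SE 0.12).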

How the data were processed

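Polyadenylated RNA of motor cortex was sequenced as paired reads after dUTP second-strand marking, per the labels' protocols. The authors deposited raw counts and FPKM per gene, 1 column of each per library. The submitters' processing notes name cutadapt 1.9, HISAT2 2.0.4, StringTie 1.3.4d, DESeq2, edgeR and mm10 without roles. The counter, its strand setting and its treatment of reads shared by similar or overlapping genes are, in the sources used here, not given, so such genes are uncertain. All 63 member IDs were found in GENCODE M21 (GRCm38) on the same chromosome and 0 with the same start and end, so no gene coordinates from the table are printed. The table's 12 other value columns, which could not be tied to these samples, stayed out.

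Genes with a mean of at least 0.5 FPKM were fitted with edgeR 4.0.16 (quasi-likelihood test, robust, TMM) in R 4.3.3 over the whole table, with Benjamini-Hochberg adjustment and a threshold of 0.05. An SE is the size of the log2 fold change divided by the square root of the F statistic. Alternatives used DESeq2 1.42.0 and limma 3.58.1 on log2(FPKM + 0.5). Shares were compared with exact permutation tests in scipy 1.17.1. The edgeR steps were run on counts simulated from the fit's own means and spreads. That checks the steps and cannot show how well the model suits these data. Nothing says that libraries came from separate animals beyond their labels, so p-values reflect spread among libraries that may be technical, and PCR copies are not independent molecules. Named with values of each library were a fixed core, the 8 members of smallest p per direction and the members of largest spread, and 2 genes per related list. The members and lists were chosen with earlier results of these data known. Some members and 1 marker gene are not reported here, and those members stay in the counts over all members.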

Additional observations from a re-analysis of the deposited data

How the results depend on the processing

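Under the 13 alternatives run, 0 members passed the adjusted threshold, and the directions of Rab3c, Cplx2, Stx2, Stx3, Syt3, Cplx1 and Rab3b did not change. All of these were among the members of smallest p per direction. The groups of Rab3c, Cplx2, Stx2, Stx3 and Syt3 were also separate, so a kept direction is no added support. Other named members, such as Snap25, Vamp2 and Sv2b, kept theirs too. With control 3 and ultrasound 2 both left out, the members with an unadjusted p under 0.05 and lower after ultrasound numbered 0. In this setting 9 members were higher and 9 lower without overlap between the groups, where fewer libraries make separation easier. The same setting gave medians of -0.0029 for vesicle recycling, 0.27 for vesicle membrane and filling, 0.067 for active zone and 0.030 for SNARE priming genes, log2 fold changes of -0.33 for Stx1a, 0.14 for Syt2, -0.016 for Nsf and 0.93 for Syt6, and a difference of -0.708 percentage points in the Syt1 share. Members lower at an unadjusted p under 0.05 numbered 1 in DESeq2, which gave Syn1 a log2 fold change of 0.0030, and 1 with no filter on low values. Without TMM scaling 1 member was higher at an unadjusted p under 0.05, 2 were higher without overlap, the recycling median was -0.031 and Nsf stood at -0.034. In limma on log2(FPKM + 0.1) and on log2(FPKM + 0.5) the groups were separate for 2 members that were higher, the recycling median was -0.015 and -0.014, and Nsf was at -0.022 in both. Same-numbered libraries did not deviate together (correlations -0.0448, -0.0074 and 0.0704). The labels do not say whether a shared number marks a pair, and these correlations cannot settle it. A replicate block left 1 member higher and 1 lower at an unadjusted p under 0.05 and 0 past the adjusted threshold. For the counts under these alternatives, at an unadjusted p or without overlap, the share over all tested genes was not computed.

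Leaving out each library in turn gave 1 to 5 members higher and 0 to 2 lower at an unadjusted p under 0.05, and 4 to 13 higher and 4 to 7 lower without overlap. Separation comes more easily with fewer libraries, and the shares over all tested genes were not computed for these fits. Medians ran from -0.015 to 0.060 for recycling and from 0.064 to 0.16 for membrane and filling genes. Log2 fold changes that took either sign ran from -0.12 to 0.42 for Stx1a, -0.54 to 0.052 for Vamp1, -0.19 to 0.099 for Syt1, -0.92 to 0.25 for Syt2, -0.038 to 0.073 for Nsf, -0.14 to 0.059 for Syp, -0.072 to 0.040 for Syn1, -0.080 to 0.10 for Rab3a and -1.76 to 0.99 for Syt6. Differences in shares ran from -0.711 to 1.70 percentage points for Syt1 and -0.382 to 1.32 for Vamp2. The causes were not tested. With 3 libraries a group, no share could reach an exact p under 0.1, and 8 of the 58 members had a 95% interval wider than a 2-fold change on at least 1 side.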

Other observations

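Other cell types also varied between libraries. Summed choroid plexus markers stood at 8.57, 14.3 and 242 FPKM in the ultrasound libraries, against 3.62, 2.24 and 10.8 FPKM in the controls, with ultrasound 3 far above the other 5 libraries. Most of that sum was Ttr, at 235 FPKM in ultrasound 3. Kl and Folr1 were also highest in ultrasound 3, at 2.04 and 0.796 FPKM, while Aqp1 and Clic6 were highest in control 3, at 3.12 and 3.49 FPKM. Summed neutrophil markers had 1.75, 6.53 and 5.13 FPKM in the ultrasound libraries, against 18.9, 31.2 and 2.40 FPKM in the controls, highest in controls 2 and 1. Oligodendrocyte markers summed to 346, 187 and 246 FPKM in the ultrasound libraries, against 214, 278 and 228 FPKM in the controls, with ultrasound 1 highest and ultrasound 2 lowest. Interneuron markers summed to 319.9, 264 and 328 FPKM in the ultrasound libraries, against 279, 333 and 341 FPKM in the controls, and the groups overlapped. None of the tested markers in these 4 lists passed the adjusted threshold in edgeR.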
